A study of Mus musculus with 22 samples.

Results

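The collagen genes other than Col4a1 and Col4a2 were described by their chromatin marks in mouse induced pluripotent stem (iPS) cell lines made with artificial transcription factors. They were taken as all protein-coding genes on chromosomes 1-19 whose symbol has the form Col, number, a, number, which gave 40 genes of 20665. A region was counted to a gene when it lay within 2500 bp of the gene's extent in the mm10 mouse genome. By that rule 272 of 135566 regions tested for H3K27ac and 72 of 68845 tested for H3K9me3 belonged to a collagen gene, and no region lay near more than 1 of them. No member lies on chromosome 8.

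Collagens are triple-helical proteins of the extracellular matrix. Fibrillar chains (types I, II, III, V, XI, XXIV and XXVII) build fibrils, type IV chains build the basement membrane network, type VI chains form beaded filaments, FACIT chains decorate fibrils, and transmembrane and multiplexin collagens sit at cell surfaces and basement membrane zones. Fibroblasts, including the mouse embryonic fibroblasts (MEFs) these lines came from, are known for high production of types I and III, and parietal endoderm for type IV. Acetylation of histone H3 at lysine 27 (H3K27ac) marks active promoters and enhancers, and trimethylation at lysine 9 (H3K9me3) marks silent chromatin. Neither is a measure of transcript or protein.

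The 3 iPS lines were derived from C57BL/6 MEFs that carry an Oct4-MerCreMer allele and a Tomato/GFP reporter, and all of them were given 100 nM 4-hydroxytamoxifen and kept with LIF on gelatin. Line C2 was made with ZFATF1, ZFATF2 and ZFATF3 together with Sox2, Klf4 and c-Myc, line C3 with ZFATF1, ZFATF2 and ZFATF4 together with the same trio, and OSKM with Oct4 and that trio. ZFATF stands for zinc finger artificial transcription factor. Each line had 2 libraries of each mark, and binding of the HA-tagged factors was profiled at day 20 in 2 C2 and 2 Empty libraries. These HA cells were transduced MEFs, C2 with its 3 artificial factors and Sox2, Klf4 and c-Myc, and Empty, the negative control, with Empty and the same trio. The labels do not say whether the 2 libraries of a line came from separate cultures, so p-values measure only the spread between these libraries, which may be technical. C2 and OSKM shared their input libraries and C3 had its own, so line and input cannot be told apart in the comparisons that involve C3. Each line is a single named line, so a difference between lines is not a difference between factor sets.

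Reads in regions ranged from 7033486 to 17649231 a library for H3K27ac and from 3412599 to 8548902 for H3K9me3. A region is said below to have risen or fallen only when its Benjamini-Hochberg adjusted p in limma's test was under 0.05 both over all regions and without the lowest 25% of them, and the larger of those adjusted p-values is given. Fold changes are on the log2 scale of normalized reads + 1 and are followed by their standard error (SE). Not every H3K27ac region of the deposited tables is a peak. Of all regions, 69.4% overlapped a deposited peak of at least 1 library, but at the collagen genes only 99 of 272 (36.4%) did, and 163 of the other 173 were windows of exactly 1001 bp. Where a library has 1 read, that is the lowest value the tables hold. Numbers of reads are multiples of that value, which may be a floor, and need not be raw reads. Levels below are given for regions with a deposited peak.

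Promoter sequences are shown first because they set out which of the collagen start sites with a window carried H3K27ac. RefSeq windows (GRCm38.p6, from 250 bases before to 50 after a start site) were matched for 31 of the 40 genes and gave 34 windows. Col1a1, Col2a1 and Col12a1 were among the genes without a window, so their start sites are not covered by the window counts. The 4 windows below contrast the pair with an H3K27ac peak in all 6 libraries, Col13a1 and Col18a1, with those of Col1a2 and Col3a1, chains of the main fibroblast collagens, which overlapped no H3K27ac region in any library. Capitals mark CpG sites, and each window is written 5′ to 3′ on the strand of its gene: Col13a1 at chr10:61979059-61979358 (minus), Col18a1 at chr10:77166481-77166780 (minus), Col1a2 at chr6:4505368-4505667 (plus) and Col3a1 at chr1:45311288-45311587 (plus).
Col13a1: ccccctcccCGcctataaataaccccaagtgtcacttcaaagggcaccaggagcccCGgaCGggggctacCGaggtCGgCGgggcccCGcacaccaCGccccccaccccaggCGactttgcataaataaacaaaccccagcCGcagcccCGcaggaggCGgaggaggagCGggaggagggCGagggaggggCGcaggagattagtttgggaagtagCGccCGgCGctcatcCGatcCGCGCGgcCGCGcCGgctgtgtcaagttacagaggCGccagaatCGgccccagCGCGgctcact
Col18a1: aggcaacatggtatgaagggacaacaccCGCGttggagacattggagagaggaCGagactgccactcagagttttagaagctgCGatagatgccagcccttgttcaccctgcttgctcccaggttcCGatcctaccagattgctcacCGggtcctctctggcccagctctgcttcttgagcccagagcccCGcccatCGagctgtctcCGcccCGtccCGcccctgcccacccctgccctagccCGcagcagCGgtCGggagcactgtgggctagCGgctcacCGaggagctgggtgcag
Col1a2: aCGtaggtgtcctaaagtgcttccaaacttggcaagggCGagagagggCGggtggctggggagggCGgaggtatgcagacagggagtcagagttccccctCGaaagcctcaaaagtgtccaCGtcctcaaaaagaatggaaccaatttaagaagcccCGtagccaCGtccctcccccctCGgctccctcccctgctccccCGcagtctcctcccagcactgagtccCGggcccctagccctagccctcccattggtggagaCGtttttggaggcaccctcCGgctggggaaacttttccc
Col3a1: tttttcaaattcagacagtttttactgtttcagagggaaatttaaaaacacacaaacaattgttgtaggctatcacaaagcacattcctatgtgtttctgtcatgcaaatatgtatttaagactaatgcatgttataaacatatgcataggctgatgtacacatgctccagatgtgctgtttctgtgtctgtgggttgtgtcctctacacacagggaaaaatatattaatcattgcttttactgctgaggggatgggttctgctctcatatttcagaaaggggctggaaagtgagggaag

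The Col13a1 window held 29 CpG sites, Col18a1 16, Col1a2 13 and Col3a1 none. Over the family, 7 of 34 windows (20.6%) at 6 genes overlapped an H3K27ac region, against 48.1% of 32851 windows of all genes in the table. The other windows with the mark were those of Col5a1 and Col16a1 (4 libraries each), Col9a2 (3 libraries), Col6a6 (2 libraries) and a second Col18a1 start (3 libraries). None of the 34 overlapped an H3K9me3 region. The median CpG count was 16 in the 7 windows with H3K27ac and 9 in the 27 without, while over all genes it was 19 and 3. Col8a2, with 32 CpG sites, and Col23a1, with 24, had no H3K27ac region in their windows. The sequence TATAA, on either strand, occurred in the Col13a1 and Col3a1 windows, in 17.6% of collagen windows and in 24.9% of all. CCAAT occurred in those of Col1a2 and Col18a1, in 29.4% of collagen windows and 37.4% of all, and GGGCGG in the same pair, in 55.9% and 35.7%. Both strands were searched, each motif was counted on its own even where matches overlap, and no factor was measured at them.

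**Figure D1:**
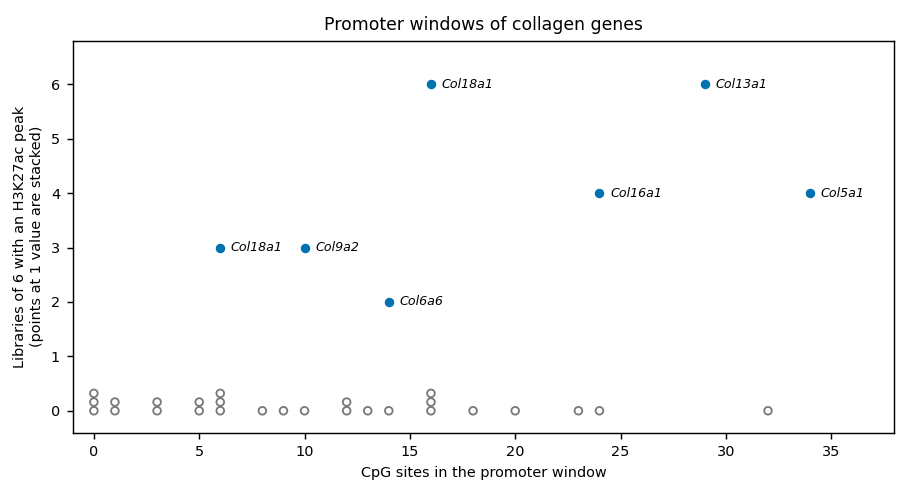
CpG sites in each of the 34 collagen promoter windows (x axis) against the number of the 6 H3K27ac libraries with a peak over the window (y axis, points at 1 value stacked). Filled points are the 7 windows with the mark, with Col13a1 and Col18a1 at 6 libraries, and open points the 27 without.

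H3K27ac peaks were found at 27 of the 40 collagen genes (67.5%), against 75.5% of all protein-coding genes, although the collagen genes are long, with a median of 106 kb against 17.5 kb. Per Mb of gene and flank, the collagen genes held 20.3 H3K27ac peak regions, and all protein-coding genes 57.3. No set of genes of like length was compared, so this difference is not shown to be particular to collagen genes. For H3K9me3 the densities were 14.8 and 14.3 regions per Mb, and 25 collagen genes (62.5%) had such a peak against 28.7% of all genes. Peaks of both marks were found at 19 genes and of neither at 7. Of the 99 H3K27ac peak regions 88 lay inside the gene, and 31 were peaks in all 6 libraries.

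The genes of collagen types I and III carried little H3K27ac in any line. Among the type V genes, Col5a1 had 3 peak regions, Col5a2 1 and Col5a3 2, the latter with a peak in all 6 libraries. Col1a2, the partner chain of Col1a1, had no region of either mark, and the other genes with no H3K27ac region were Col9a1 and Col10a1, a cartilage chain and the chain of hypertrophic cartilage. Col3a1 had no deposited peak. Its strongest window stood at 1 read in 5 of the 6 libraries, and was 1.14 RPM in C2 replicate 2, where RPM is the reads of a region scaled so that all regions of the mark have the usual common total in every library. The strongest Col1a1 peak, inside the gene at chr11:94949943-94950574, had 2.32 and 1.56 RPM in C2, 0.963 and 2.76 in C3 and 0.726 and 2.86 in OSKM. The groups overlapped, and no difference from OSKM was called (log2 fold change 0.03 in C2, adjusted p = 0.982, and 0.10 in C3, adjusted p = 0.94). The 9 further genes with regions but no peak were Col4a4, Col6a1, Col6a2, Col6a3, Col7a1, Col8a1, Col11a1, Col11a2 and Col28a1, among them all 3 classical chains of collagen VI.

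The strongest collagen regions were in the transmembrane and multiplexin classes. At the lead region, meaning the one of the highest mean over the 6 libraries, Col13a1 ranged from 88.5 to 214 RPM. Col18a1, whose product releases endostatin, ranged from 61.3 to 83.5 at its lead region inside the gene, and no change was called there. Exons and introns were not told apart, since the annotation used here gives gene extents only. The lead region of Col23a1 (36.2 to 44.1) overlapped the promoter window of Phykpl, and that of Col4a3 (13.7 to 23.5), an outside peak, those of Mff and C430014B12Rik, so these levels cannot be given to the collagen gene alone. Next came the cartilage genes Col2a1 (15.4 to 25.3) and Col9a3 (17.4 to 24.2). At the other end, Col19a1 lay at 0.161 to 1.02.

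**Figure D2:**
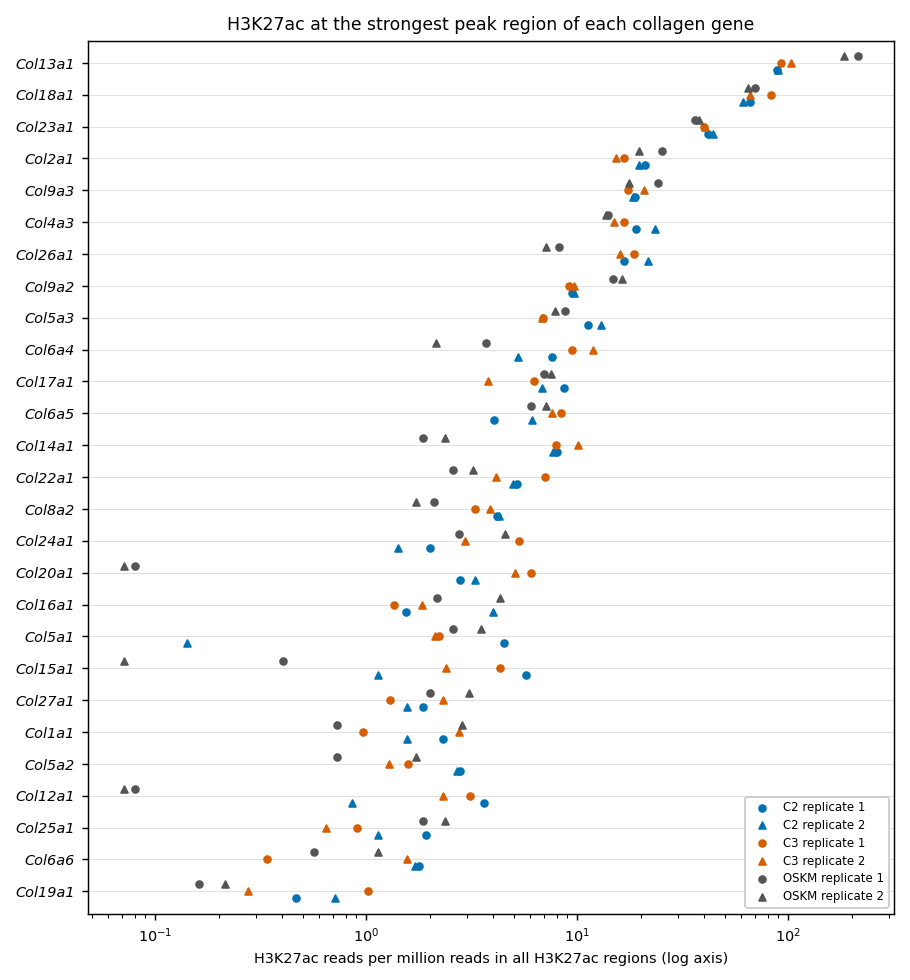
H3K27ac in each of the 6 libraries (RPM over all H3K27ac regions, log axis) at the strongest peak region of each of the 27 collagen genes with a peak. Circles are replicate 1 and triangles replicate 2, and OSKM stands above both other lines at Col13a1 and below them at Col20a1, Col14a1 and Col26a1.

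The first comparison asks whether the chromatin of line C2 differed from that of OSKM cells at collagen genes. Of the 99 peak regions 14 were called (14.1%, against 10.9% of all peak regions), 5 higher and 9 lower in C2 (5.29% and 5.57% of all peak regions). Over all 272 regions the same 14 were 5.15%, against 7.63% of all regions. Of 37 lead regions 3 rose and 2 fell (11.5% of the lead regions of all protein-coding genes were called, 2.52% higher and 8.98% lower). The lower calls were at Col13a1 (7) and Col9a2 (2), and the higher ones at Col26a1 (2), Col14a1, Col15a1 and Col20a1. The median over the 99 peak regions was -0.10, or 0.15 without Col13a1, and over all peak regions -0.03. When reads were scaled by each library's total, all regions shifted and 7 collagen regions were higher and 4 lower, so the split between directions depends on the scaling. Only 1 of the 14 calls, a Col13a1 region, held without each library in turn: without OSKM replicate 1 the counts were 1 higher and 1 lower, and without OSKM replicate 2 they were 4 and 2. Quantile normalization of the libraries left no collagen region called in any comparison of either mark, and the share of all regions called under it is not given here.

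In C3, set against the same OSKM libraries, 33 of 272 regions were called (15.8% of all regions were), 15 higher and 18 lower. Among peak regions 31 of 99 were called (31.3%, against 22% of all), 15 higher and 16 lower (13.6% and 8.34% of all). Of these 31 calls, 13 were at the single gene Col13a1, which held 18 of the 99 peak regions. Of 37 lead regions 6 rose and 2 fell (14.8% over all protein-coding genes, 6.61% higher and 8.16% lower). Of the 18 lower regions 14 were at Col13a1, 3 at Col9a2 and 1 at Col18a1, and 2 of them, 1 at Col13a1 and the 1 at Col18a1, had no deposited peak. The higher calls lay in Col6a4 (3), Col15a1 (3), Col26a1 (2) and 1 each at Col2a1, Col6a5, Col12a1, Col14a1, Col18a1, Col20a1 and Col23a1. The median over the 99 peak regions was -0.23, or 0.09 without Col13a1, and over all peak regions 0.01. In the fits without each library in turn 17 of the 33 calls held throughout, 7 higher and 10 lower.

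Between C2 and C3 no collagen region was called for H3K27ac by limma (0.0435% of all regions were). At an unadjusted p under 0.05 in limma's test there were 24 of 272 (8.82%), against 13.2% of all regions. The quasi-likelihood test of edgeR called 1 higher and 1 lower in C2, and 4 were higher and none lower in the authors' deposited table. The shares over all regions under both of these are not given here. A difference from OSKM that was called in only 1 of the lines is therefore not shown to differ between the lines. C2 and C3 share the OSKM libraries as controls, and their values are set side by side below for that reason.

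**Figure D3:**
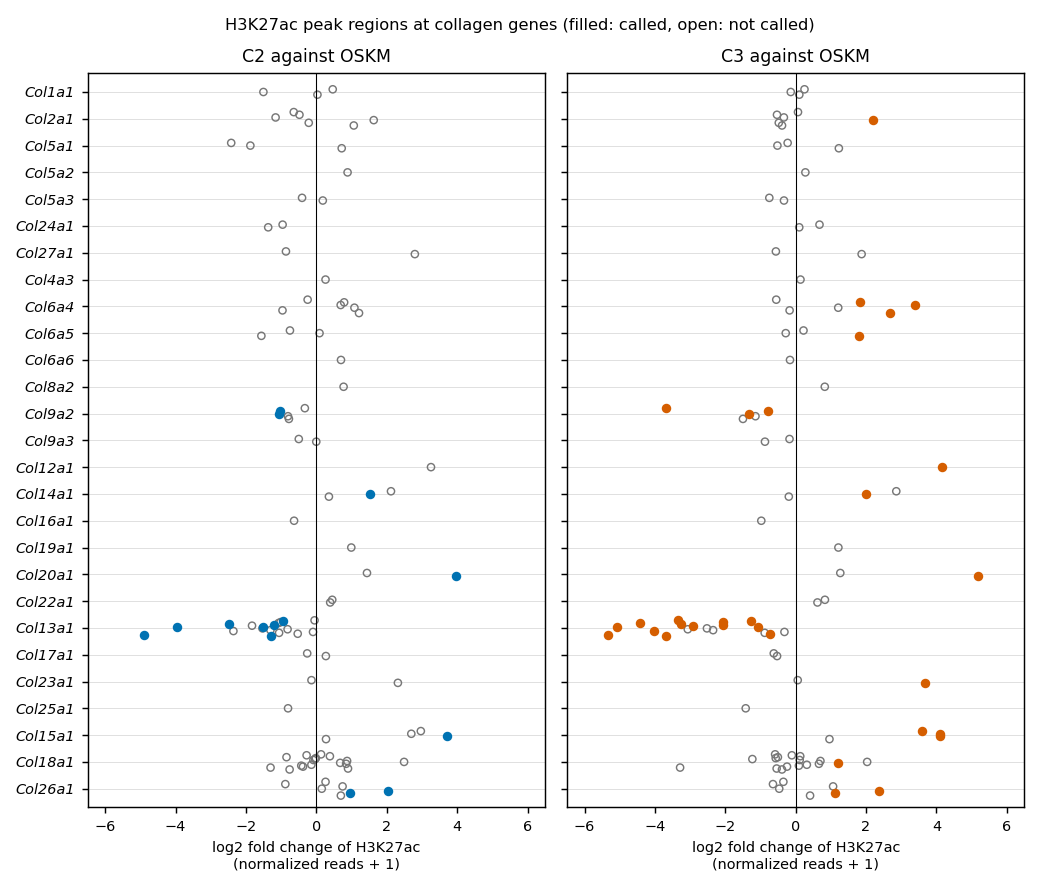
Log2 fold change of H3K27ac against OSKM at each of the 99 peak regions, by gene, in C2 (left) and C3 (right). Filled points are called and open points not, and the Col13a1 row holds 7 filled points below 0 in C2 and 13 in C3.

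Col13a1 encodes collagen XIII, a transmembrane collagen of cell adhesion sites that is known at the neuromuscular junction. It held 18 of the 99 peak regions, and all 18 had a fitted change below 0 in both lines. These neighbours were set against the same OSKM libraries and are not independent. The share below 0 was 62.9% in C2 and 54.9% in C3 among flanking regions within 1 Mb. On the rest of chromosome 10 it was 45.8% and 41.6%. The lead region of Col13a1, at chr10:61925843-61933475, lies inside the gene 45633 bp from the start site, close to the non-coding gene Gm30121. In the C2 comparison it had 962 and 811 normalized reads in C2 and 2696 and 2347 in OSKM. In the C3 comparison it had 1365 and 1223 in C3 and 2929 and 2553 in OSKM. Each line's libraries lay below both OSKM libraries. The change was -1.51 (SE 0.27, adjusted p = 0.0134) in C2 and -1.08 (SE 0.31, adjusted p = 0.0304) in C3. Leaving out either OSKM replicate ended both calls, and edgeR did not call the region in C3.

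At the Col13a1 start site, the region chr10:61977379-61979150 had 108 and 124 normalized reads in C2 against 222 and 224 in OSKM, and 78.6 and 128 in C3 against 242 and 243. It fell by 0.94 in C2 (SE 0.24, adjusted p = 0.0363) and by 1.27 in C3 (SE 0.28, adjusted p = 0.0187). The region overlaps the printed window, and its peak was present in all 6 libraries. Leaving out either OSKM replicate ended the call in C2, while the call in C3 held without each library. Further into the gene, 98559 bp from the start site, chr10:61879631-61880549 had 76.2 and 68.4 normalized reads in OSKM. C2 had 1.68 and 1.28 there, which are 2 reads and 1 read. The ratio was 47.3 (95% interval 15.9 to 232, counting error only, and only if these are raw reads). Leaving out either OSKM replicate ended this call. In C3 both libraries were at 1 read there, and OSKM was at least 27.2-fold higher by a floor of 3 reads a library. The steepest contrast within the gene in C3 that rested on more than 1 read was at chr10:61966993-61968169, with 5.02 and 4.36 normalized reads in C3 and 112 and 132 in OSKM (-4.43, SE 0.58, adjusted p = 0.00376). C2 had 58.0 and 47.5 there against 103 and 121 and was not called (-1.07, adjusted p = 0.0538). Between C2 and C3 the fitted change at this gene was above 0, meaning higher in C2, in 16 of the 18 regions, and none was called. The share below 0 was 11.1% at the gene, 49.8% among flanking regions within 1 Mb and 59.6% on the rest of chromosome 10.

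H3K9me3 at Col13a1 was also lower. It had 4 regions, all below 0 in both lines, as were 73.9% of flanking regions within 1 Mb in C2 and 82.6% in C3. At chr10:61907972-61909126 the values were 81.4 and 79.4 normalized reads in C2 against 168 and 170 in OSKM, and 87.0 and 47.1 in C3 against 187 and 186. The change was -1.06 (SE 0.19, adjusted p = 0.0435) in C2 and -1.53 (SE 0.24, adjusted p = 0.00453) in C3. In C3 the lead H3K9me3 region, chr10:61916840-61918711, fell too (118 and 82.0 against 240 and 220 normalized reads, -1.21, SE 0.20, adjusted p = 0.00358), as did chr10:61932198-61932802 (-4.04, SE 0.74, adjusted p = 0.00936), which overlaps the lead H3K27ac region. The call in C2 was lost on the scaling by library totals, on centring the libraries' medians and with the pseudocount of 8. None of these H3K9me3 calls, in either line, held without OSKM replicate 1, and the lead region's call in C3 held without OSKM replicate 2.

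Both marks being lower at 1 gene, the regions around it were measured within 1 Mb on each side, a distance chosen after its values were seen. Of 213 flanking H3K27ac peak regions, 8 rose and 11 fell in C2 and 16 rose and 28 fell in C3, with medians of -0.22 and -0.21. Within the gene the medians were -1.26 and -2.72, and on the rest of chromosome 10, over 5108 regions, 0.06 and 0.24. Of those 5108 regions, 295 rose and 200 fell in C2, and 863 rose and 279 fell in C3. For H3K9me3 the 23 flanking regions had medians of -0.41 in C2, with none called, and -0.52 in C3, with 6 lower. Within the gene the medians of that mark, over only 4 regions, were -0.73 in C2 and -1.37 in C3. The 3227 regions on the rest of the chromosome had medians of -0.02 and 0.01. Of these 3 rose and 7 fell in C2, and 52 rose and 163 fell in C3. By these medians the flanks were lower than the rest of the chromosome by less than the gene itself, a difference that was not tested.

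**Figure D4:**
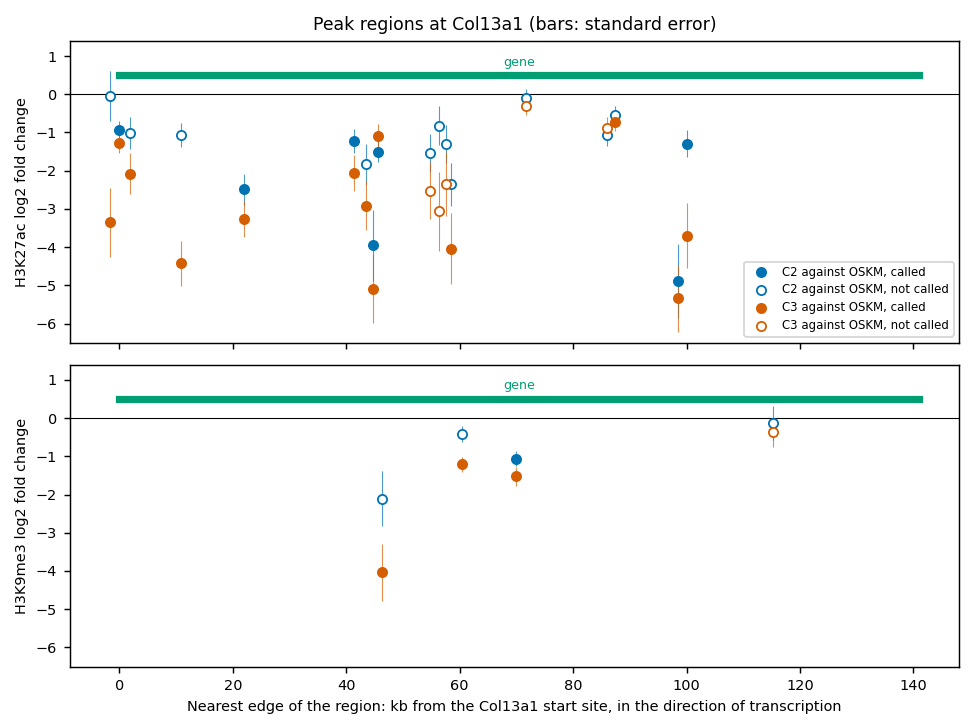
Log2 fold change against OSKM of each peak region at Col13a1, by distance of its nearest edge from the start site (kb, 0 where the region spans it), for H3K27ac (top, 18 regions) and H3K9me3 (bottom, 4 regions). Bars are the standard error and filled points are called, and every point lies below 0 in both lines.

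Among the FACIT collagens, Col9a2 fell. It encodes a chain of collagen IX, which coats the type II fibrils of cartilage. Its lead region chr4:121043391-121045121, 3825 bp from the start site, had 103 and 87.2 normalized reads in C2 against 187 and 208 in OSKM, and 135 and 114 in C3 against 203 and 226. No line overlapped OSKM. The change was -1.05 (SE 0.25, adjusted p = 0.0326) in C2 and -0.78 (SE 0.25, adjusted p = 0.0486) in C3. The neighbouring region chr4:121041884-121043208 changed by -1.07 in C2 (adjusted p = 0.0294) and by -1.32 in C3 (adjusted p = 0.0111), the latter holding without each library in turn. In C2 both calls were lost on the scaling by library totals, on leaving out either OSKM replicate and in the authors' deposited table. The lead region's call in C3 was lost on leaving out either OSKM replicate or C3 replicate 2, with the pseudocount of 8, with the replicate block and in the authors' deposited table. Further into the gene, chr4:121052512-121052887 was at 1 read in both C3 libraries and at 19.9 and 29.8 normalized reads in OSKM, at least 8.59-fold higher, while C2 (20.2 and 15.4) overlapped OSKM. Col9a3, another chain of the same protein, had 2 peak regions and no call.

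Col14a1 and Col12a1, which bind fibrils of type I, had regions that were higher. The Col14a1 lead region chr15:55407288-55408601 had 87.4 and 69.3 normalized reads in C2 against 23.4 and 30.1 in OSKM, and 118 and 120 in C3 against 25.4 and 32.8. It rose by 1.52 in C2 (SE 0.41, adjusted p = 0.0445) and by 2.01 in C3 (SE 0.35, adjusted p = 0.00776), the latter without each library in turn as well. The call in C2 was lost on leaving out either C2 replicate or OSKM replicate 1, and with the pseudocount of 8. At Col12a1 the only peak region, chr9:79680621-79681232, was at 1 read in both OSKM libraries. C3 had 46.0 and 27.3 normalized reads, at least 11.7-fold higher (adjusted p = 0.0107), and C2 had 39.5 and 7.70, which was not called (adjusted p = 0.0743).

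Col20a1 had a lead region that was higher in both lines. The region chr2:180980257-180981296 lies 2027 bp before the extent of the gene and also within 2500 bp of Arfgap1, so it cannot be given to either gene. Both OSKM libraries were at 1 read. C2 had 30.3 and 29.5 normalized reads, at least 10.3-fold higher (adjusted p = 0.0268), and C3 had 89.5 and 60.0, at least 23.8-fold higher (adjusted p = 0.00459). In C2 the call was lost on leaving out either OSKM replicate, and in C3 it held without each library.

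The multiplexins Col15a1 and Col18a1 and the unclassed Col26a1 also had higher regions. At Col15a1, a proteoglycan-like collagen of basement membrane zones, 3 adjoining regions 69838 bp or more from the start site were raised in C3, next to the non-coding gene Gm52734. In the first, chr4:47277850-47278479, both OSKM libraries were at 1 read, C2 had 36.1 and 16.7 normalized reads (at least 9.13-fold higher, adjusted p = 0.0367) and C3 44.3 and 26.2 (at least 11.2-fold higher, adjusted p = 0.0112). In the second, chr4:47278740-47279237, C3 had 35.1 and 33.8, also against 1 read in each OSKM library (adjusted p = 0.0104). Both calls in C3 held without each library, and that in C2 was lost without either OSKM replicate and with the pseudocount of 8. The lead region chr4:47279259-47280050 had 63.6 and 28.4 in C3 against 5.52 and 0.993 in OSKM (3.59, SE 0.98, adjusted p = 0.025), a call lost without C3 replicate 1, and 62.2 and 10.3 in C2, which was not called (adjusted p = 0.12).

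At Col18a1, 1 of 17 peak regions was called, chr10:77144231-77147851, with 298 and 308 normalized reads in C3 against 118 and 148 in OSKM (1.19, SE 0.24, adjusted p = 0.0114), a call lost without OSKM replicate 1. It had 193 and 196 in C2 against 109 and 136 and was not called there (0.68, adjusted p = 0.097). This region also overlaps an H3K9me3 region. At Col26a1 the lead region chr5:136744100-136747165 had 182 and 195 normalized reads in C2 against 104 and 91.3 in OSKM (0.95, SE 0.25, adjusted p = 0.0402), and 276 and 189 in C3 against 113 and 99.3 (1.10, SE 0.27, adjusted p = 0.0244). The call in C2 was lost without C2 replicate 2, without either OSKM replicate and in the authors' deposited table, and that in C3 without C3 replicate 1 or OSKM replicate 2. A second region, chr5:136753527-136755050, had 99.2 and 80.8 in C2 against 22.3 and 20.1 (2.03, SE 0.42, adjusted p = 0.0216), and 124 and 124 in C3 against 24.3 and 21.8 (2.38, SE 0.36, adjusted p = 0.00542). Its call in C3 held without each library, and that in C2 was lost without C2 replicate 1.

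In the beaded-filament class the changes were in the additional chains Col6a4 and Col6a5, not in Col6a1, Col6a2 or Col6a3, which had no peak. Col6a4 had 3 regions raised in C3. Its lead region chr9:106071351-106073915 had 140 and 141 normalized reads in C3 against 50.8 and 29.8 in OSKM (1.82, SE 0.34, adjusted p = 0.0109), and 82.4 and 47.5 in C2 against 46.7 and 27.4, which was not called (0.79, adjusted p = 0.282). The neighbour chr9:106070345-106071235 had 50.2 and 44.7 in C3 against 1.10 and 8.94 (3.40, SE 0.95, adjusted p = 0.0284). Leaving out either C3 replicate ended both calls, and that of the neighbour was also lost without OSKM replicate 1. Col6a5 had 1 region raised in C3, chr9:105884242-105885433 (137 and 89.4 against 34.2 and 28.8, 1.79, SE 0.37, adjusted p = 0.0136), a call lost without C3 replicate 1, and in C2 its libraries spread from 1.28 to 43.7.

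Of the fibrillar genes Col2a1, the main collagen of cartilage, had the only H3K27ac call: chr15:97975829-97978121 had 133 and 64.4 normalized reads in C3 against 13.2 and 28.8 in OSKM (2.18, SE 0.51, adjusted p = 0.0257), a call lost without C3 replicate 1. The C2 value was 1.63 (adjusted p = 0.0986). At the transmembrane Col23a1, chr11:51405354-51405810 had 20.9 and 46.9 in C3 against 2.21 and 0.993 in OSKM, which are 2 reads and 1 read. The ratio was 20.5 (95% interval 6.73 to 102, counting error only, and only if these are raw reads), with an adjusted p of 0.0196 in limma's test. The other 2 transmembrane genes, Col17a1 of hemidesmosomes and Col25a1, had no call, and neither had the type IV chains, the anchoring-fibril chain Col7a1 or the short-chain network genes.

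H3K9me3 at collagen genes lay inside the genes in 67 of 72 regions, and 19 were peaks in all 6 libraries. The strongest were at Col23a1 (66.8 to 100 RPM of H3K9me3), Col4a4 (71.5 to 106) and Col26a1 (64.5 to 84.9), and the weakest lead region was at Col6a4 (3.63 to 5.57). Col23a1 had 8 regions, Col26a1 9 and Col6a5 7. Col4a4 is one of the genes with no H3K27ac peak, while Col23a1 and Col26a1 carried both marks. Region for region the marks met at 7 genes, where 9 H3K9me3 regions overlapped an H3K27ac peak region: Col1a1, Col13a1, Col18a1, Col19a1, Col22a1, Col24a1 and Col26a1. Cells of 1 library are pooled, so overlap does not show both marks on 1 allele.

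**Figure D5:**
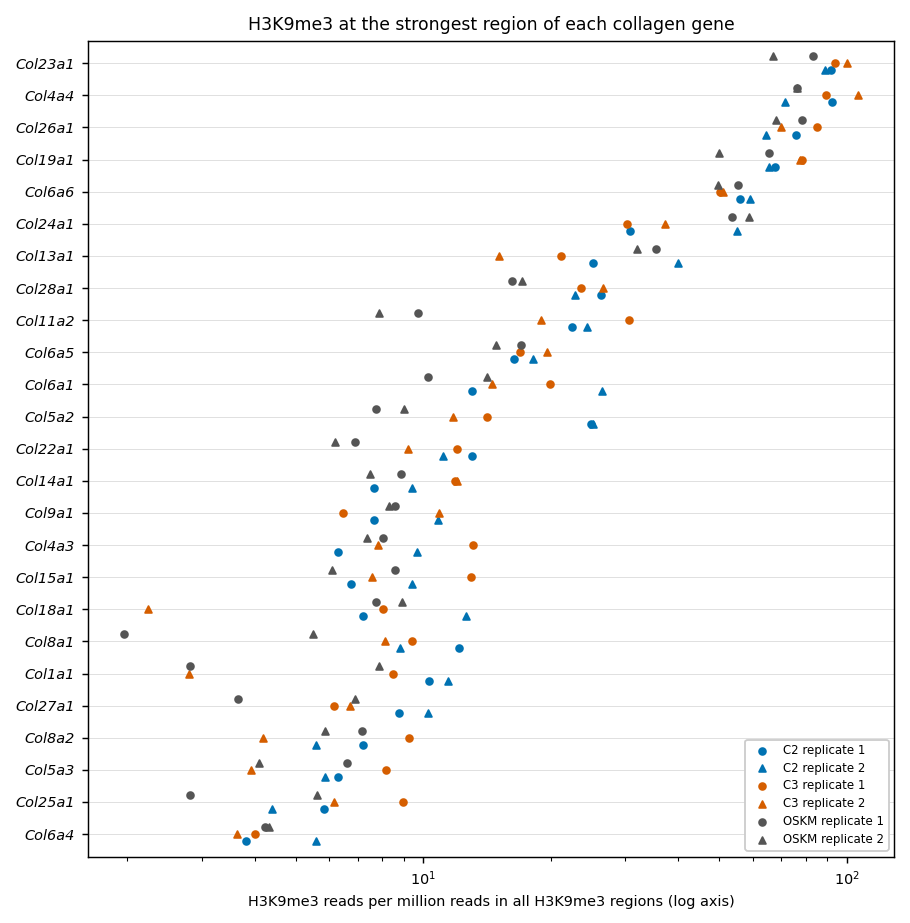
H3K9me3 in each of the 6 libraries (RPM over all H3K9me3 regions, log axis) at the strongest region of each of the 25 collagen genes with one. Circles are replicate 1 and triangles replicate 2, and the lines overlap at most genes, with OSKM below both other lines at Col11a2 and above C3 at Col24a1 and Col13a1.

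In C2 against OSKM 1 of 72 H3K9me3 regions was called, the lower one at Col13a1 (0.999% of all regions were called, 0.093% higher and 0.906% lower). In C3 against OSKM 1 rose and 5 fell (6.71% of all, 1.25% higher and 5.46% lower), which is 8.33% of the 72. Scaling by library totals gave 2 higher and none lower in C2, and 3 higher and 5 lower in C3. Between C2 and C3 none was called by limma (0.102% of all regions were) or by edgeR. In limma's test 7 of 72 (9.72%) had an unadjusted p under 0.05, against 9.16% of all regions. Besides Col13a1, Col24a1, a fibrillar collagen gene, had its lead region chr3:145443018-145446334 at 170 and 202 normalized reads in C3 against 363 and 404 in OSKM (-1.04, SE 0.15, adjusted p = 0.0012), a call that held without each library. C2, at 157 and 262 against 326 and 369, was not called (-0.77, adjusted p = 0.171). At Col6a5 chr9:105906468-105907139 fell in C3 (15.5 and 7.59 against 58.0 and 57.1, -2.30, SE 0.61, adjusted p = 0.0154). The 1 rise was at Col11a2, a minor fibrillar chain, at chr17:34046476-34047892 (171 and 103 against 65.6 and 53.9, 1.15, SE 0.26, adjusted p = 0.0245). The C2 value there was 1.08 (adjusted p = 0.0717). The calls at Col6a5 and Col11a2 were lost on leaving out either OSKM replicate, and that at Col11a2 also without C3 replicate 1.

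HA peaks were found at similar numbers of collagen genes in C2 and in the negative control, a difference that was not tested. Of the 40 genes 6 and 10 (15% and 25%) had a peak in the C2 libraries and 7 and 10 (17.5% and 25%) in the Empty libraries. Peaks at these genes numbered 13 and 36 in C2 and 10 and 23 in Empty. The libraries were unequal, with 12376 and 44939 peaks in all in C2 and 10666 and 22632 in Empty. Reads after filtering were 2506011 and 3896935 in C2 and 1707437 and 1629753 in Empty. No collagen gene had a peak in both C2 libraries and none in Empty, against 0.629% of all protein-coding genes. Over all genes, 6.67% and 12.8% had a peak in C2 and 6.17% and 8.49% in Empty, while the collagen genes are longer. At 4 places a peak of one C2 library overlapped one of the other, and at Col25a1 and Col22a1 an Empty peak overlapped too. The pair without an Empty overlap, at Col19a1 (chr1:24341323-24341615) and Col4a4 (chr1:82477521-82477825), rested on pileups of 7 reads in replicate 1. The redundant share of HA reads was 0.92 to 0.94 by the peak headers, and no detection limit was measured.

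The genes that process, bind and break down collagen were read at their lead H3K27ac regions. Their lists, and those of the cell type markers below, were chosen with earlier results of these data known. Of the 30 processing genes with a region, 2 rose and 2 fell in C2 (13.3%, against 11.5% of all lead regions called), and 4 rose and 2 fell in C3 (20%, against 14.8%). Their median changes were -0.30 and -0.07, and those over the lead regions of all protein-coding genes -0.31 and -0.15. The prolyl hydroxylase gene P3h2 and the procollagen N-proteinase gene Adamts2 rose in both lines, from 1 read in each OSKM library: P3h2 had 42.0 and 33.4 normalized reads in C2 and 80.3 and 51.3 in C3, and Adamts2 29.4 and 20.5 in C2 and 85.3 and 80.7 in C3. Pcolce, an enhancer of procollagen processing, fell in C2 (1223 and 975 against 2083 and 2006, -0.90, SE 0.28, adjusted p = 0.0423). P3h4 and Fkbp10 are collagen-modifying neighbours that share 1 lead region, which is counted for each of them in the 30 genes and the 4 rises. That region rose in C3 (0.91, SE 0.26, adjusted p = 0.0417), and P3h3 fell (-1.73, SE 0.43, adjusted p = 0.023). Colgalt1 fell in both lines. Of these calls Colgalt1 in C2 and P3h2 and Adamts2 in C3 held without each library. All the others were lost without OSKM replicate 1, and all but that of P3h2 in C2 also without OSKM replicate 2. Of 14 receptor and breakdown genes, the collagen-receptor subunit Itgb1 and the protease Mmp2 fell in C2 and Itgb1 in C3, each call lost without OSKM replicate 2. Colgalt1, Itgb1 and Mmp2 lie on chromosome 8, where the median of all H3K27ac peak regions was -1.33 in C2 and -1.06 in C3, while the medians of the other chromosomes lay between -0.12 and 0.10 in C2 and between -0.16 and 0.33 in C3.

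Markers of other cell types were read in the same way, beside the 2.52% of all lead regions that were higher and 8.98% lower in C2, and the 6.61% and 8.16% in C3. Of 16 endoderm markers with a region, 4 rose in C2 and 9 in C3 and none fell, with median changes of 0.73 and 1.24. Their summed H3K27ac was 479 to 626 RPM in C2, 647 to 815 in C3 and 247 to 313 in OSKM, and Ttr had no peak. None of the 4 calls in C2 and 4 of the 9 in C3 held without each library. Of 18 pluripotency markers none rose, 6 fell in C2 and none in C3. Their median changes were -0.85 and -0.43, and those over the lead regions of all protein-coding genes -0.31 and -0.15. The sums were 2794 to 3163 in C2, 3140 to 3928 in C3 and 4398 to 4515 in OSKM. Klf2, 1 of the 6, lies on chromosome 8, and 5 fell without that chromosome. All 6 calls were lost without OSKM replicate 1, and likewise without OSKM replicate 2. Of 20 fibroblast markers with a region 2 rose and 1 fell in C2 and 3 rose and 2 fell in C3, with median changes of 0.06 and -0.06, and the sums were 245 to 246, 267 to 271 and 253 to 273. None of those calls in C2 and 2 of the 5 in C3 held without each library. Postn, Acta2, Pdgfrb and Fap had no peak at their lead region in any library. Fewer cells of a type and less mark per cell cannot be told apart in these pooled cells, and the part of these cell types in the collagen results was not tested.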

How the data were processed

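The study holds 22 libraries, of which 12 histone mark libraries and 4 HA libraries were used. The submitters' processing notes name the mm10 build, the aligner Bowtie2 2.2.5, DiffBind 1.16.2, SAMtools 1.3 and CASAVA 1.8.2, and peaks were called in each library with MACS 2.1.0.20150731 (histone marks) or 2.1.1.20160309 (HA) at a q cutoff of 0.01, per the file headers. The 6 deposited tables hold one signal value per region and library, reads normalized by the authors. Every value was a whole multiple of the library's lowest value (tolerance 1e-06). These multiples were taken as reads, with the lowest value as 1 read, and counts per library came from them. Whether input was subtracted or a floor set beforehand was not established, so they may not be raw reads. The C3 columns carry another name, tied to C3 by the headers of the C3 peak files. The peak lists deposited by the authors hold a fold enrichment, a pileup signal and -log10 p and q-value columns, used only to describe or filter peaks. The log2 fold changes, p-values and log2 concentrations of the deposited tables are the authors' own.

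Log2(normalized reads + 1) was tested with limma 3.58.1 (trend) in R 4.3.3, 1 fit per table over all its regions, with only the 4 libraries compared, and again without the lowest 25% of regions. edgeR 4.0.16 on recovered reads, the authors' deposited table, other scalings, a pseudocount of 8, a replicate block, leaving out each library, and a gene window of 0 bp were alternatives. Further choices were added after seeing the data: the fit on regions with a deposited peak, leaving out Col13a1, and scaling by library totals. The fits were tested on simulated data. The 40 members and all lists (collagen processing, collagen receptors and breakdown, and fibroblast, endoderm and pluripotency markers) were chosen with earlier results of these data known. Named genes are Col1a1, Col1a2 and Col3a1, each called lead H3K27ac region, the 5 members with the largest called change elsewhere, up to 10 members for H3K9me3 and up to 6 called members a list, and regions shown beside these were chosen after their values were seen. Bounds against groups at 1 read use a floor of 3 reads a library. Intervals (95%, exact binomial) cover counting error only and hold only if the recovered reads are raw reads. Promoter windows and gene extents are RefSeq's (GRCm38.p6), matched by symbol. Figures were drawn with matplotlib 3.10.9 under Python 3.11.15.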

Additional observations from a re-analysis of the deposited data

How the results depend on the processing

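The fit on regions with a deposited peak, scaling by library totals and leaving out Col13a1 were chosen after seeing the data. Counts are given as higher and lower in the first-named line, and what moved them was not tested unless stated. The shares of all regions called under these other settings are not given here. The counts therefore show only how the collagen calls moved, and not whether they moved more than those of other regions. After quantile normalization no collagen region was called in any comparison (0 and 0 for both marks, lead regions included). For H3K27ac in C2 against OSKM, where the reported counts were 5 and 9, the pseudocount of 8 gave 3 higher, the fit on regions with a deposited peak 8 higher, edgeR 9 and 14, 13 were higher in the authors' deposited table, scaling by library totals 4 lower and leaving out Col13a1 2 lower. Of the lead regions (3 and 2) edgeR called 5 higher, choosing the lead by mean per kb gave 1 higher, and 1 was lower in the authors' deposited table, on scaling by library totals and without Col13a1. Leaving out each library gave 1 to 19 higher and 1 to 15 lower regions, and 0 to 4 higher and 0 to 4 lower lead regions. In C3 against OSKM (15 and 18) leaving out Col13a1 gave 4 lower. Lead regions (6 and 2) were 3 higher by mean per kb, and 0 lower with the pseudocount of 8, 1 with edgeR and 1 without Col13a1. Leaving out each library gave 12 to 16 higher and 11 to 22 lower regions, and 3 to 6 higher and 0 to 2 lower lead regions. In C2 against C3 (0 and 0) edgeR called 1 and 1, the fit of all regions alone 1 lower, and 4 were higher in the authors' deposited table, 1 of them a lead region. Leaving out each library gave 0 to 4 higher and 0 to 3 lower regions, and 0 to 1 lead regions each way.

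For H3K9me3 in C2 against OSKM (0 and 1) the fit without the lowest 25% of regions gave 1 higher, scaling by library totals 2 and 0, and 2 were higher and 3 lower in the authors' deposited table. None was lower with median-centred libraries, the pseudocount of 8 or without Col13a1 (0 each). In C3 against OSKM (1 and 5) edgeR, the fit on regions with a deposited peak and the fit of all regions alone each gave 2 and 8, scaling by library totals 3 higher and leaving out Col13a1 2 lower, and 3 were higher in the authors' deposited table. Leaving out each library gave 0 to 3 higher and 0 to 7 lower in C2, 0 to 3 and 1 to 9 in C3, and 0 and 0 to 1 between C2 and C3. Where a line kept a single library, it was assumed to vary like the other line.

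The replicate number as a block was not a known pairing: with 2 numbers a line, same-numbered libraries correlated between -0.05 and 0.35 in their deviations. With the replicate block H3K27ac counts were 6 and 13 in C2, 17 and 21 in C3 and 5 and 6 between C2 and C3. Lead regions under the block were 3 and 2 in C2, 6 and 1 in C3, and 1 and 3 between C2 and C3. H3K9me3 counts under the block were 2 and 3 in C2, 2 and 7 in C3, and 0 and 0 between them.

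The log2 change of the Col1a1 lead region, which was not called, changed sign. In C2 (0.03) it was -0.39 after quantile normalization, -0.027 with the pseudocount of 8, -0.20 with edgeR and -0.215 in the authors' deposited table. In C3 (0.10) it was -0.26 after quantile normalization, -0.12 with edgeR and -0.081 in the authors' deposited table. Between C2 and C3 (-0.04) it was 0.20 on scaling by library totals. Leaving out each library gave -0.91 to 0.97 in C2, -0.85 to 1.05 in C3 and -0.61 to 0.54 between them. The HA count stayed at 0 with a gene window of 0 bp and with a -log10 q of 5 or more. Depth limits regions near 1 read, where a missing mark and an undetected one cannot be told apart.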

Other observations

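The deposited H3K27ac tables hold 39599 regions of exactly 1001 bp, and 97.8% of them overlapped no deposited peak. The H3K9me3 tables hold 33 regions of that width, all with a peak. How the 1001 bp windows arose is not given in the sources used here. At the collagen genes 134 of the 272 H3K27ac regions stood at 1 read in all 6 libraries, so the share of regions called there depends on whether such windows are counted.

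Of the 33 regions called in C3 for H3K27ac, 32 were also called by edgeR and 31 by the authors' deposited table, and of the 14 called in C2, 14 and 9. All 6 H3K9me3 calls in C3 were shared by both.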
